A study of Mus musculus with 13 samples.

Results

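The genes described here were 10 enzymes and helper proteins that crosslink and process collagen, chosen by symbol from the 32285 genes listed in the files. They were the lysyl oxidases Lox, Loxl1, Loxl2, Loxl3 and Loxl4, the lysyl hydroxylases Plod1, Plod2 and Plod3, and the procollagen C-proteinase enhancers Pcolce and Pcolce2. All 10 were measured in fibroblasts of the mouse mammary gland by droplet single-cell RNA sequencing from the 3′ end, in which each transcript caught is counted once as a UMI. The 13 libraries fell into 9 groups. The puberty (4 weeks), adult (9 weeks), pregnancy (day 14.5), lactation (day 10) and involution (day 4) groups held 1 library each, and the placebo and MPA+E groups held 2 each. MPA+E stands for medroxyprogesterone acetate, a progestin, given with estradiol, and these mice were 9 weeks old. All of these came from wildtype C57BL/6 females, with 2 females per stage and 2 per placebo or MPA+E library, and from sorted stromal cells that lacked lineage markers and CD24. The hyperplasia and tumor groups held 2 libraries each, from raGFP-Wnt1 mice of genotype Pdgfra-GFP KI/+ MMTV-Wnt1 T/+ on a mixed C57BL/6 and FVB background. In these mice the MMTV promoter drives Wnt1 in the mammary epithelium, and cells were sorted by the GFP that the Pdgfra locus drives. Tumor 1 and hyperplasia 1 came from 1 mouse of 45 weeks, and tumor 2 and hyperplasia 2 from a second mouse of 17 weeks.

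Fibroblast barcodes numbered 100523 of 120355, with 4236 to 11951 per library and 47521842 to 102522735 UMIs per library. The median number of UMIs per fibroblast ran from 3990 in pregnancy to 20256 in tumor 2. A pair of libraries shared at most 34 barcode sequences. The 4 fibroblast markers Dcn, Lum, Pdgfra and Col1a2 summed to 17212 to 26440 CPM in the 13 libraries. Levels below are UMIs of a gene per 1000000 UMIs of the fibroblasts of a library (CPM). A lower level in a library cannot separate fewer expressing cells from less RNA per cell. Because counting was from the 3′ end, levels were compared between libraries for 1 gene and not between genes.

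Collagen is secreted as procollagen, trimmed at both ends and then assembled into fibrils. Before secretion, lysyl hydroxylases modify lysines of the chain, and this fixes which kind of crosslink can later form. After secretion, PCOLCE and PCOLCE2 speed up the removal of the C-terminal propeptide by proteinases of the BMP1 family, and lysyl oxidases oxidise lysines and hydroxylysines so that neighbouring molecules become covalently linked. In the mammary gland, collagen crosslinking is known for its part in stiffening of the tumor stroma.

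The members differed widely in how far their levels moved over the 13 libraries. The highest level was 21.2 times the lowest for Pcolce2, 7.38 times for Lox and 4.87 times for Loxl3. It was 2.92 times for Pcolce, 2.84 for Plod2, 2.57 for Plod3, 2.52 for Loxl1 and 2.09 for Plod1. For Loxl4 and Loxl2 it stayed below 2, at 1.90 and 1.85. Some of these values rested on 1 library. Without tumor 2 the ratio was 2.70 for Pcolce2, 3.03 for Loxl3 and 1.66 for Plod3, and without puberty it was 1.93 for Pcolce, a check chosen after seeing the data. Loxl4 was sparse throughout, between 3.67 and 6.96 CPM.

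**Figure D1:**
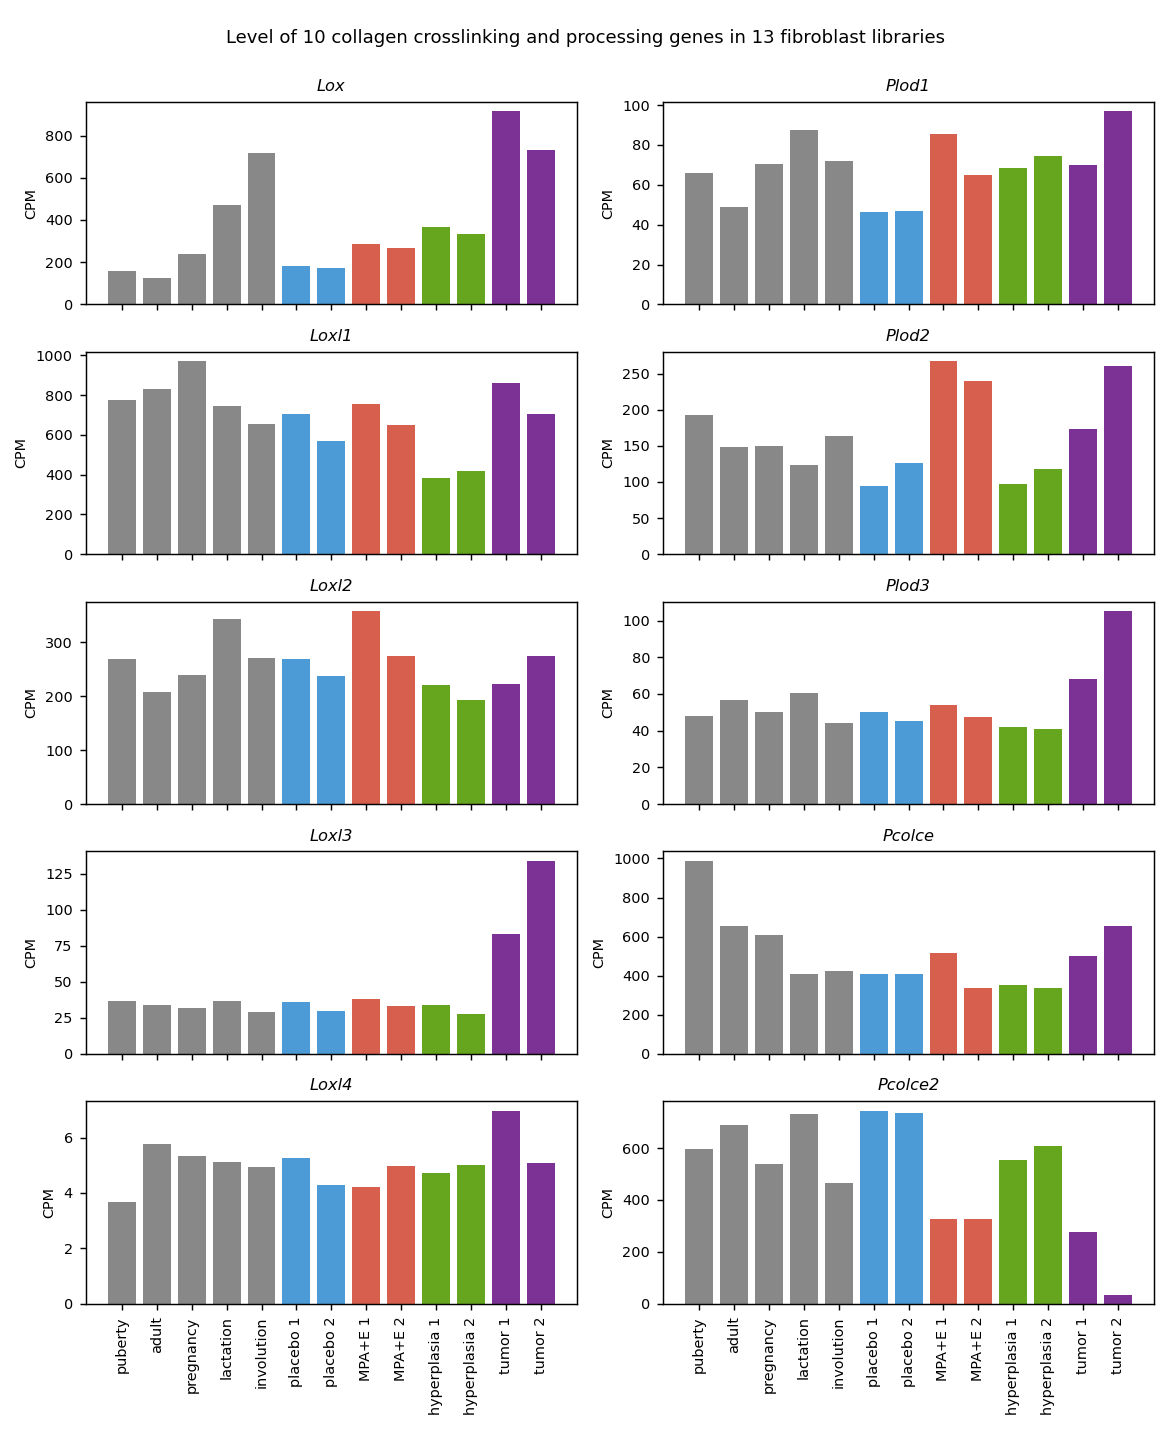
Level of each of the 10 genes (y axis, CPM, own scale for each panel) in the 13 fibroblast libraries (x axis), with 1 bar per library and colors for stages (grey), placebo (blue), MPA+E (red), hyperplasia (green) and tumor (purple). Lox is lowest in the adult (124) and highest in tumor 1 (914), and Pcolce2 is lowest in tumor 2 (35.0).

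Members were fibroblast transcripts to differing degrees. Cells with at least 2000 UMIs were thinned to 2000, so that depth could not set the share, and the others were left out. Among the 96297 fibroblasts kept, Loxl1 had a UMI in 67.6%, Pcolce in 54.0% and Pcolce2 in 49.0%. Lox and Loxl2 had one in 35.3% each, Plod2 in 24.1% and Plod1 in 12.3%. Plod3 followed at 9.87%, Loxl3 at 7.66% and Loxl4 at 0.967%. The unthinned shares ran from 4.31% for Loxl4 to 89.8% for Loxl1, at a median of 7886 UMIs per cell. Among 822 epithelial barcodes, to which free RNA can also give UMIs, the thinned shares were 0% for Loxl4 to 4.56% for Plod2, at a median of 8834 UMIs. The 0% for Loxl4 rested on 812 thinned barcodes, which allows a share of up to 0.369% (3 counts). By this share Plod1 and Plod3 were not lower in endothelial barcodes, at 19.3% and 10.6% of the 254 of 412 that could be thinned. By CPM, Plod1 was 87.9 there against 69.6 in fibroblasts, and Plod3 was 51.8 against 56.3. Pcolce had a UMI in 32.8% of thinned pericyte barcodes.

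The first question was how the genes differ between stages of postnatal gland development. Each stage had 1 library, so there was no test, the ranges given are 95% exact binomial intervals for counting error, and a fold of 2 served as the call. None of the 10 members reached this fold between any neighbouring stages compared. Among all genes with a mean of at least 2 CPM the share past it was 2.54% for puberty against adult, 1.64% for pregnancy against adult, 9.03% for lactation against pregnancy and 3.42% for involution against lactation. The median log2 ratio of the members was 0.22, -0.05, 0.24 and -0.23 in these 4 comparisons, beside -0.10, -0.02, 0.06 and -0.12 over all genes. TMM scaling moved the last 2 of these all-gene medians to -0.04 and -0.02.

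Lox, which makes the aldehydes from which collagen and elastin crosslinks form, was the member that moved most over the stages. From puberty through adult, pregnant, lactating and involuting glands its level was 157, 124, 238, 471 and 717 CPM. Each step after the adult was a rise, by 1.92 times (1.87 to 1.98) into pregnancy, 1.98 times (1.94 to 2.02) into lactation and 1.52 times (1.50 to 1.54) into involution. With TMM scaling the log2 ratio of lactation to pregnancy was 0.88 in place of 0.98. The placebo libraries, also from wildtype glands of 9 weeks, had Lox at 183 and 174 CPM, above the adult library and below pregnancy. The size of a ratio to the adult therefore depends on which library is used. Involution against adult, a pair set side by side after the values were seen, gave 5.79 times (5.66 to 5.92). Markers of other cell types also differed between the stage libraries. The 5 epithelial markers summed to 33.4 CPM in pregnancy and 0.123 to 1.02 in the other stages, and the 5 endothelial markers to 41.8 in pregnancy, 5.32 in lactation and 15.9 to 27.1 in the rest. In puberty the 5 Schwann markers summed to 53.6 and the 5 pericyte markers to 53.7, against 18.2 to 22.4 and 24.6 to 31.8 in the later stages. Epcam, Pecam1, Sox10 and Rgs5 were at 0 by the choice of barcodes, and the part of these cells in the stage ratios was not tested. The other lysyl oxidases did not follow this course. Loxl1, associated with elastic fibers, peaked in pregnancy at 970 and was lowest in involution at 657. Loxl2, which acts on basement membrane collagen, was 208 in the adult and 343 in lactation. Loxl3 lay between 29.1 and 36.5 in all 5 libraries.

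The C-proteinase enhancers took different courses from each other. In the same order Pcolce stood at 987, 653, 608, 407 and 422 CPM. Its puberty level was 1.51 times (1.49 to 1.53) that of the adult. The placebo glands of 9 weeks had Pcolce at 408 and 411, below the adult library and near lactation and involution. Pcolce2 stood at 597, 687, 537, 733 and 464 CPM, and involution was 0.633 times (0.625 to 0.642) lactation. Among the lysyl hydroxylases, Plod1 went from 48.7 in the adult to 87.5 in lactation, 1.80 times (1.72 to 1.87). Plod2, which hydroxylates lysines of the telopeptides, was 192 in puberty and 123 in lactation. Plod3, which also has glycosyltransferase activity, lay between 44.0 and 60.7.

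Genes around the members were read from 2 lists. Of 21 genes for collagen hydroxylation, folding, glycosylation and propeptide removal, 18 had enough counts over the stages. None of them passed 2 fold for puberty or pregnancy against the adult. In lactation against pregnancy the prolyl hydroxylase P3h3 (47.4 to 111 CPM) and the procollagen proteinase Adamts3 (1.52 to 3.14 CPM) were higher and the prolyl hydroxylase subunit P4ha3 (22.9 to 7.48 CPM) was lower. P4ha3 passed again in involution against lactation, at 15.9 CPM, which was below its level in pregnancy. The placebo glands of 9 weeks had P3h3 at 103 and 90.8 CPM and Adamts3 at 3.67 and 2.80, near the lactation library and above the adult library (51.1 and 1.91). Of 13 substrates and partners of lysyl oxidase, 5 were higher in puberty than in the adult (Col1a1, Fmod, Col1a2, Col3a1 and Eln), and 3 of these (Fmod, Col1a1 and Eln) were higher in pregnancy than in the adult. None passed in lactation against pregnancy, and only Fmod, a collagen-binding proteoglycan, passed in involution against lactation. The placebo glands had Col1a1 at 7082 and 6155 CPM, against 4074 in the adult library and 9437 in pregnancy, so its fold depends on the adult library. Eln, at 516 and 472 with placebo, was near its adult level of 557.

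Fibroblast states were then read from clusters, which had been formed without the 10 members and the listed genes and were named from fixed markers. Cluster 0 of the stage libraries had raised markers of the progenitor-like state (6 of 7 at 2 fold or more) but none among its leading genes, where the keratinocyte marker Krtdap stood instead, so it is also given by its number. The other named stage clusters had markers of their own state among their 10 leading genes. The progenitor-like cluster of the hormone libraries likewise had 5 of 7 markers raised and none among its leading genes. Cluster 5, with 2889 cells, was led by milk genes such as Wap and Csn2 and carries no name, as do 3 small clusters of 149 to 273 cells.

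The course of Lox was unevenly spread over these states. In the ECM remodeling-like state its level, again from puberty through involution, was 161, 157, 518, 1138 and 1564 CPM. Involution against adult was 9.94 times (9.38 to 10.5) in this state, which held 169 cells in puberty and 1470 to 2964 in the other stages. In the preadipocyte-like state Lox was 90.0 in the adult, 210 in lactation and 518 in involution, 5.76 times (5.46 to 6.07) the adult. In the adipogenesis-regulatory-like state the same ratio was 2.14 (1.92 to 2.38). In the unnamed cluster 5, led by milk genes, Lox was 85.7 in the adult, 402 in lactation and 666 in involution, 7.77 times (6.58 to 9.24) the adult level. In the lobular-like state it was highest in lactation, at 203, 197, 247, 312 and 203 CPM from puberty through involution. Its ratio to the adult there was 1.58 (1.48 to 1.69) in lactation and 1.03 (0.963 to 1.10) in involution. In progenitor-like cluster 0 the ratio was highest in pregnancy, at 1.52 (1.45 to 1.60), and was 1.26 (1.19 to 1.33) in involution. With every library given the same mix of clusters, the 5 levels of Lox were 161, 123, 245, 360 and 517 CPM. The order of the 5 stages was therefore the same as without this weighting, and the involution level was lower than the 717 measured. This weighting cannot account for a changing mix of cells inside a cluster, which was not tested. By dividing a cluster of its own further, the study reported fibroblasts with Mgp and raised Lox that were more numerous in involution. A ratio within the ECM remodeling-like state can therefore compare different cells.

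**Figure D2:**
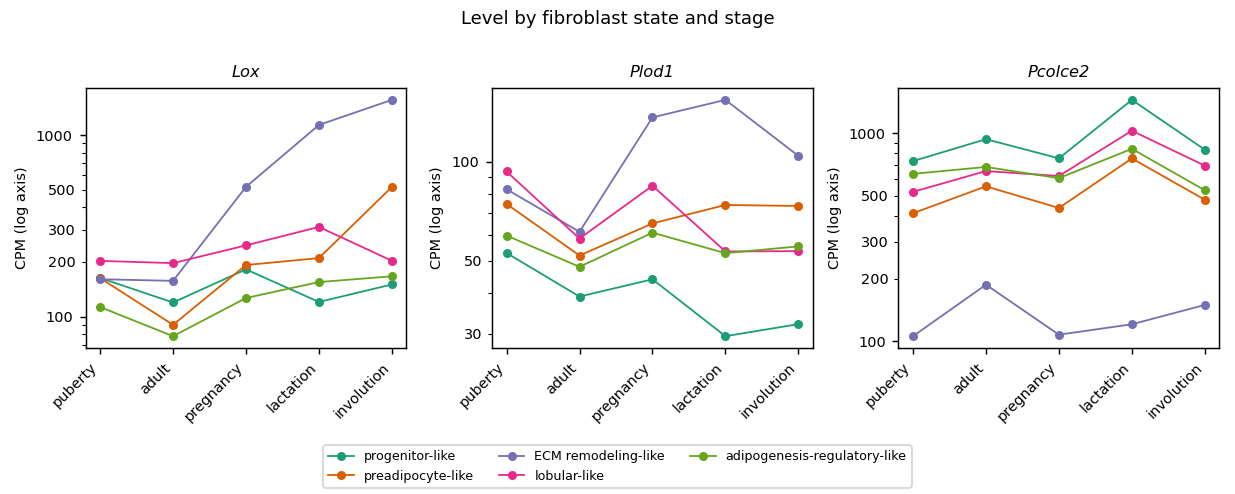
Level of Lox, Plod1 and Pcolce2 (y axis, CPM, log axis) at the 5 stages (x axis), with 1 point per state and library and 1 line per state, where at least 50 cells were present. Lox climbs to 1564 in the ECM remodeling-like state in involution and peaks at 312 in the lobular-like state in lactation, and Pcolce2 in the ECM remodeling-like state lies below the other named states at each stage.

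Other members also had a place among the states. Plod1 against the adult was 2.51 times (2.28 to 2.78) in lactation in the ECM remodeling-like state and 0.758 times (0.673 to 0.853) in progenitor-like cluster 0. Pcolce2 was 106 to 187 CPM in the ECM remodeling-like state and 734 to 1447 in cluster 0. Pcolce was highest among the 5 large named states in the lobular-like state at every stage, at 1621, 1178, 1164, 709 and 863 CPM from puberty through involution. Loxl1 was lowest among them in the adipogenesis-regulatory-like state at every stage, at 286 to 429. These are descriptions of clusters and carry no test.

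The second question was what ovarian hormones change in these genes. Under MPA+E, Lox and Plod2 rose and Pcolce2 fell relative to placebo, and the other 7 members did not pass the test. The test was edgeR's quasi-likelihood test on UMIs summed per library with Benjamini-Hochberg adjustment over 15642 genes. It called 2.69% of all genes higher and 1.64% lower. The median log2 fold change was 0.14 over the members and 0.01 over all genes tested. With 2 libraries per group, groups can fail to overlap without any effect. Where this is said below, the share of all genes without overlap was not counted.

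Lox had 183 and 174 CPM in the placebo libraries against 285 and 268 CPM after hormone. The MPA+E libraries lay above both placebo libraries, with a log2 fold change of 0.64 (SE 0.10, adjusted p = 0.0347 by edgeR). Plod2 had 94.0 and 126 CPM against 267 and 239 CPM. Again the groups did not overlap, and the log2 fold change was 1.20 (SE 0.20, adjusted p = 0.0446 by edgeR), although with no filter on low counts its adjusted p was 0.0510. Pcolce2 had 744 and 736 CPM against 326 and 328 CPM. Its libraries within a group differed by about 1%, far less than the gap between groups, and the log2 fold change was -1.17 (SE 0.12, adjusted p = 0.0121 by edgeR).

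Pcolce2 is shown with the stretch upstream of its start, since it was the member that fell under a steroid receptor agonist. The 220 bases are RefSeq sequence on GRCm38.p6, chr9:95637378-95637597, plus strand, outside the transcribed part of the gene. Capitals mark AGAACA, the reverse complement of TGTTCT, a hexamer of the element bound by progesterone and glucocorticoid receptors.
Pcolce2: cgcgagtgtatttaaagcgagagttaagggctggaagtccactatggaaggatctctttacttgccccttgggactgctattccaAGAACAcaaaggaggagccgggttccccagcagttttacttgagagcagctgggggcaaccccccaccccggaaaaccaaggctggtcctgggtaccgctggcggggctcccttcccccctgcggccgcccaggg
Both strands were searched, and 14.4% of 32851 promoters held either form in the same window, so the match is a description of letters and not of a bound site. Of the 10 members 5 had a promoter in the RefSeq table. The window of Pcolce, which lies inside the gene's annotated span on the same build, held GGTCA or its complement TGACC, part of the estrogen receptor element, as did 32.0% of promoters. Plod3 held ACGTG or CACGT, the core of the hypoxia response element, as did 14.4%. Plod1 and Loxl4 held none of these 3 motifs.

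Plod1 had 46.3 and 46.8 CPM in the placebo libraries against 85.5 and 64.8 CPM after hormone. The groups did not overlap, and the log2 fold change of 0.69 (SE 0.13) had an adjusted p of 0.0654 by edgeR, short of the threshold, while DESeq2 gave an adjusted p of 0.00154. Loxl2 had 269 and 238 CPM against 357 and 275 CPM, a log2 fold change of 0.33 (SE 0.13, adjusted p = 0.279 by edgeR). Loxl1, Loxl3, Plod3, Pcolce and Loxl4 had log2 fold changes of 0.16, 0.13, 0.10, 0.07 and -0.03. Pcolce lay at 518 in MPA+E 1 and 339 in MPA+E 2, on both sides of the placebo libraries at 408 and 411.

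The calls did not hold when either placebo library was left out. Such a fit has no spread between placebo libraries, so a call can also be lost for want of libraries. Without placebo 1 or without placebo 2, 0 of the 10 members were called and 22 and 42 genes were called in all, with log2 fold changes of 0.61 and 0.67 for Lox, 0.94 and 1.50 for Plod2 and -1.23 and -1.11 for Pcolce2. Markers of other cell types also moved. The 5 endothelial markers summed to 14.6 CPM in each placebo library and to 43.9 and 45.8 in the MPA+E libraries, with Pecam1 at 0 by the choice of barcodes. The 5 pericyte markers summed to 48.0 and 48.1 and to 20.98 and 19.5, with Rgs5 at 0 by the same choice. The muscle markers, at 6.31 and 5.84 against 5.14 and 4.73, and the immune markers, at 1.86 and 1.26 against 1.95 and 1.92, did not overlap either, with Myog and Ptprc at 0 by choice. Their part in the result was not tested. With barcodes that held a UMI of another cell type kept, 3 members were called.

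**Figure D3:**
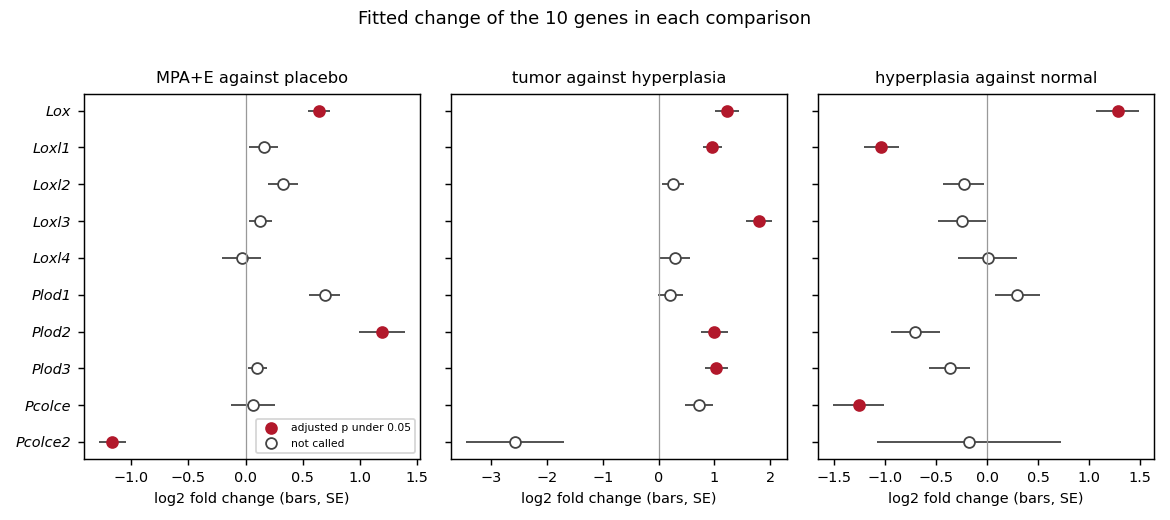
Fitted log2 fold change (x axis) of each of the 10 genes (y axis) in MPA+E against placebo, tumor against hyperplasia and hyperplasia against normal, with SE as bars and filled red points for an adjusted p under 0.05. Pcolce2 lies at -1.17, -2.57 and -0.18 and is called in the first comparison only, and the hyperplasia libraries enter both other comparisons.

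Of the 21 hydroxylation, folding and propeptide genes, 1 rose and 1 fell under MPA+E, with a median log2 fold change of 0.11. P4ha3, a prolyl 4-hydroxylase subunit, rose by a log2 fold change of 2.03 (SE 0.11, adjusted p = 0.00691 by edgeR). Tll1, a proteinase of the BMP1 family, fell at -1.38 (SE 0.21, adjusted p = 0.0354 by edgeR). Of the 13 substrates and partners, Eln, which encodes elastin, rose at 0.73 (SE 0.11, adjusted p = 0.0358 by edgeR), and the list's median was 0.16. Without placebo 1 none of these genes was called, without placebo 2 or MPA+E 2 neither Tll1 nor Eln was, and without MPA+E 1 Eln was not.

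Within fibroblast states the hormone comparison was repeated on sums per library and state, in the 5 named states with at least 50 cells in each library. The test called 11 of 50 pairs of member and state. The share of all genes called was 3.49% in the adipogenesis-regulatory-like state, 1.34% in the ECM remodeling-like state, 2.76% in the lobular-like state, 4.90% in the preadipocyte-like state and 2.98% in the progenitor-like state.

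Plod2 rose in 3 states. In the adipogenesis-regulatory-like state it had 60.1 and 96.3 CPM with placebo against 311 and 319 CPM with hormone (log2 difference 2.06, SE 0.26, adjusted p = 0.00875 by edgeR). In the lobular-like state it had 131 and 185 against 440 and 434 (1.51, SE 0.22, adjusted p = 0.0107 by edgeR). In the preadipocyte-like state it had 102 and 132 against 310 and 311 (1.39, SE 0.19, adjusted p = 0.0185 by edgeR). The MPA+E libraries were also above both placebo libraries in the ECM remodeling-like state, at 204 and 220 against 117 and 129, and in the progenitor-like state, at 158 and 182 against 84.7 and 126, where adjusted p was 0.118 and 0.240 by edgeR.

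Pcolce2 fell in 4 states. In the ECM remodeling-like state it had 170 and 181 CPM with placebo against 49.3 and 34.7 CPM with hormone (log2 difference -2.14, SE 0.18, adjusted p = 0.00756 by edgeR). The log2 fold change was -1.32 (adjusted p = 0.00662 by edgeR) in the preadipocyte-like state, -1.13 (0.0155) in the lobular-like state and -0.92 (0.0165) in the adipogenesis-regulatory-like state. In the progenitor-like state it had 1156 and 1037 against 679 and 664, a log2 fold change of -0.69 (SE 0.13, adjusted p = 0.0603 by edgeR). Pcolce2 was lower in both MPA+E libraries than in either placebo library in all 5 states. The share of all genes with such a gap was not counted.

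Other calls were fewer. Lox rose in the preadipocyte-like state, from 144 and 146 to 247 and 265 CPM (0.81, SE 0.13, adjusted p = 0.0303 by edgeR). Plod1 rose in the lobular-like state (0.82, SE 0.15, adjusted p = 0.0276 by edgeR) and in the adipogenesis-regulatory-like state (0.69, SE 0.13, adjusted p = 0.0354 by edgeR). Loxl2 rose in the adipogenesis-regulatory-like state (0.59, SE 0.12, adjusted p = 0.0497 by edgeR). Without placebo 1 the number of called pairs was 3 and without placebo 2 it was 5.

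**Figure D4:**
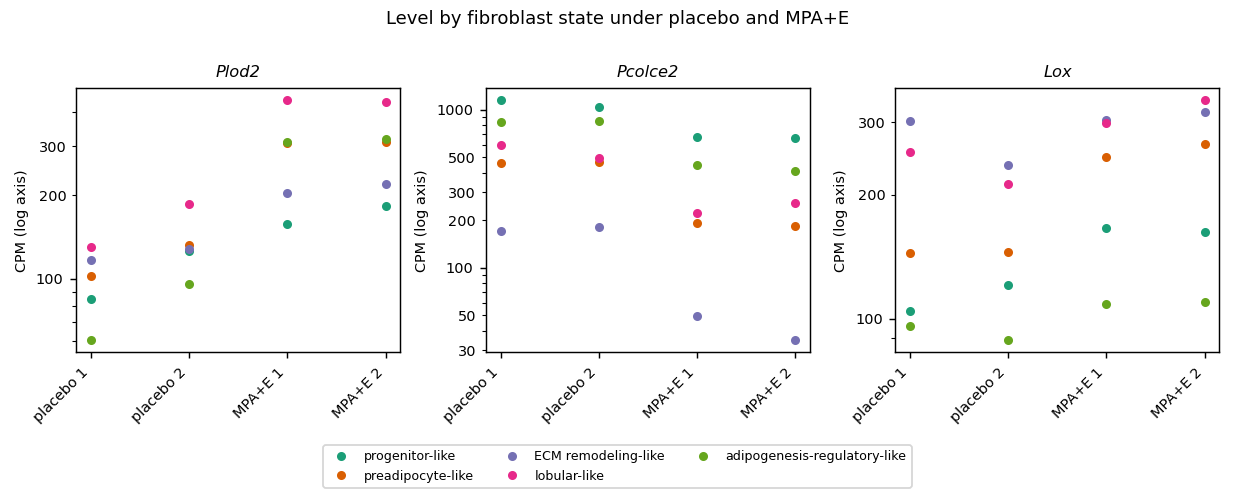
Level of Plod2, Pcolce2 and Lox (y axis, CPM, log axis) in the 2 placebo and 2 MPA+E libraries (x axis), with 1 point per state and library. Plod2 lies at 311 and 319 in the adipogenesis-regulatory-like state under MPA+E against 60.1 and 96.3 under placebo, and Pcolce2 is lower under MPA+E in all 5 states.

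Whether the hormone effect in the progenitor-like state differed from the mean effect of the other 4 states was tested directly. The fit had no term for the library that the states shared, so their sums entered as separate samples. By edgeR, 0 members passed, 1316 genes of 13787 had an unadjusted p under 0.05 and 0.791% of genes were called. The difference was 0.67 for Pcolce2 (SE 0.16, adjusted p = 0.0687 by edgeR) and -0.74 for Plod2 (SE 0.31, adjusted p = 0.442 by edgeR), on the log2 scale. An unnamed cluster led by Ctla2a, Ifi206 and Tgm2 held 371 and 447 placebo cells against 1057 and 1794 hormone cells. In that cluster Pcolce2 was 1102 and 1100 against 453 and 451 CPM, Plod2 was 86.1 and 110 against 257 and 232, and Lox was 380 and 378 against 446 and 350. With these cells joined to the progenitor-like ones, an alternative chosen after seeing the data, the difference for Pcolce2 was 0.38 (adjusted p = 0.260 by edgeR) and 0 members passed. With the same mix of clusters in every library, Lox was 209 and 196 with placebo against 259 and 250 with hormone, Plod2 was 94.3 and 125 against 243 and 249, and Pcolce2 was 742 and 710 against 365 and 355.

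The third question was how the genes differ between tumors and hyperplastic glands of the same mice. In tumors 5 of the 10 members rose and none fell past the threshold, by limma-voom on summed UMIs in 1 fit with the puberty and adult libraries, adjusted over 16302 genes. Puberty and adult entered the fit as 1 normal group, so the difference between these stages is part of the spread behind its p-values. Over all genes 15.4% were called higher and 13.9% lower. The median log2 fold change was 0.84 over the members and -0.01 over all genes tested.

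Of the lysyl oxidases, Lox, Loxl1 and Loxl3 rose. Lox had 366 and 333 CPM in hyperplasia and 914 and 731 in tumors (log2 fold change 1.23, SE 0.22, adjusted p = 0.0145 by limma). Loxl1 had 385 and 417 against 861 and 705 (0.96, SE 0.17, adjusted p = 0.0147 by limma). Loxl3, which lay between 29.1 and 38.1 in the 9 stage and hormone libraries, had 33.9 and 27.5 against 83.2 and 134 (1.80, SE 0.24, adjusted p = 0.00746 by limma). For all 3 the lower tumor library was above the higher hyperplasia library, and the share of all genes with such a gap was not counted. Loxl2 had 221 and 194 against 222 and 274 (0.26, SE 0.21, adjusted p = 0.360 by limma), and Loxl4 had a log2 fold change of 0.30 (SE 0.26).

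Of the lysyl hydroxylases, Plod2 and Plod3 rose. Plod2 had 97.3 and 118 CPM in hyperplasia and 174 and 261 in tumors (1.00, SE 0.24, adjusted p = 0.0287 by limma). Plod3 had 41.9 and 41.0 against 67.9 and 105 (1.03, SE 0.21, adjusted p = 0.0189 by limma). Plod1 had 68.4 and 74.5 against 70.1 and 96.8, so the groups overlapped (0.21, SE 0.23, adjusted p = 0.493 by limma).

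The C-proteinase enhancers lay on opposite sides of 0. Pcolce had 354 and 338 CPM in hyperplasia and 500 and 653 in tumors (0.73, SE 0.25, adjusted p = 0.0683 by limma). With the mouse as a replicate block in a fit of the 4 raGFP-Wnt1 libraries it was called (0.72, adjusted p = 0.0480 by limma), and in the same 4 libraries without the block it was not (adjusted p = 0.0615 by limma). Pcolce2 had 553 and 609 in hyperplasia, 276 in tumor 1 and 35.0 in tumor 2. The tumors differed from each other by 7.88 times, and the log2 fold change of -2.57 (SE 0.88) had an adjusted p of 0.0678 by limma. Without tumor 1 it was -4.07 and without tumor 2 it was -1.04. Each of these 2 fits holds 1 tumor library and so no spread between tumors. Each tumor was below the hyperplastic gland of its own mouse, at 0.498 times in mouse 1 and 0.0575 times in mouse 2.

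With either hyperplasia library left out, no member was called. Such a fit has no spread between hyperplasia libraries, so a call can also be lost for want of libraries. Over the 5 called genes, log2 fold changes were then between 0.86 and 1.95. Without tumor 1, more members and more genes in all were called than in the full fit. Without tumor 2, fewer genes were called in all and Plod2 was not (0.73). Keratinocyte markers summed to 59.3 and 150 CPM in hyperplasia and 36.4 and 20.4 in tumors, and the 5 Schwann markers to 16.5 and 22.7 against 9.89 and 2.10, with Sox10 at 0 by the choice of barcodes. The keratinocyte marker Krtdap was also a leading gene of the progenitor-like cluster of these libraries, so the keratinocyte sum need not come from keratinocytes. The endothelial markers summed to 5.75 and 12.8 against 2.84 and 3.60, the muscle markers to 3.66 and 3.89 against 2.58 and 3.41, and the immune markers to 3.81 and 3.05 against 3.92 and 5.71. Their part in the result was not tested.

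Of the 21 hydroxylation, folding and propeptide genes, 12 rose and 1 fell in tumors, with a median of 0.79. The largest were P4ha3 (3.45), Colgalt2 (-2.44), the prolyl 3-hydroxylase P3h1 (1.59), P4ha2 (1.54), the collagen chaperone Fkbp10 (1.50) and the hydroxylysine galactosyltransferase Colgalt1 (1.15), in log2 fold change. Of the 13 substrates and partners 6 rose and none fell, with a median of 1.30, namely Fmod (5.92), Col1a1 (1.99), Postn (1.62), Col5a2 (1.62), Efemp2 (1.60) and Col5a1 (0.97). Without hyperplasia 1, 1 gene of the first list and 0 of the second were called higher, and without hyperplasia 2 it was 1 of each.

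By state the tumor differences were uneven, and they are given as ratios within each mouse, with no test. Lox in progenitor-like cluster 1 was 68.5 and 82.3 CPM in hyperplasia and 671 and 842 in tumors, 9.79 times in mouse 1 and 10.2 times in mouse 2. That cluster held 2750 cells of tumor 1 but 199 of tumor 2. It had 7 of 7 progenitor-like markers raised at 2 fold or more, but its 10 leading genes included Krtdap and no progenitor marker. In the myofibroblastic-like state Lox was 5.40 and 3.16 times higher, and in the ECM remodeling-like state the ratios were 1.32 and 0.995. In an unnamed cluster of 3769 cells, led by F5, Cdkn2a and Igfbp2, they were 1.25 and 1.02.

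The clusters differed in size between the groups. The lobular-like one held 151 and 70 cells of hyperplasia and 550 and 383 of tumors, and the myofibroblastic-like one 114 and 251 against 1647 and 1844. The myofibroblastic-like cluster was led by Areg, Cxcl5, Gm6093, Egr4, Tnc and Slc16a3, with 3 of 5 markers of its state raised and 1 among its 10 leading genes, and the unnamed cluster led by F5 also had 3 of these 5 raised. The lobular-like cluster was led by Thbs4, Comp, Kcnma1, Kcnj15, Chad and Scube2, with 4 of 6 markers of its state raised. The preadipocyte-like cluster held 659 and 1007 cells of hyperplasia and 519 and 99 of tumors. The study reported that lobular-like fibroblasts with Bmp5 and committed preadipocytes with Cd36 were absent from tumors. It saw fibroblasts with alpha-SMA, the product of Acta2, in tumors only. The lobular-like and preadipocyte-like names may therefore not hold for the tumor cells, nor the myofibroblastic-like name for the hyperplasia cells. Whether a cluster held the same kind of cell in both groups was not tested, so a ratio within it can compare different cells.

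Loxl3 took another distribution. It was 6.23 and 7.23 times higher in the unnamed cluster led by F5, where Lox was nearly level, 3.50 and 5.67 times in the lobular-like state and 2.70 and 5.01 times in the myofibroblastic-like state. In progenitor-like cluster 1 it was 1.14 and 1.88 times higher. Loxl1 was 4.86 and 4.34 times higher in the cluster led by F5, 3.21 and 3.69 times in the ECM remodeling-like state and 1.46 and 1.29 times in cluster 1. Pcolce2 was below hyperplasia in every named state with at least 50 cells in both libraries of a mouse. In the lobular-like state it was 0.136 times in mouse 1 and 0.0245 times in mouse 2, and in the ECM remodeling-like state it was 0.847 and 0.226 times.

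**Figure D5:**
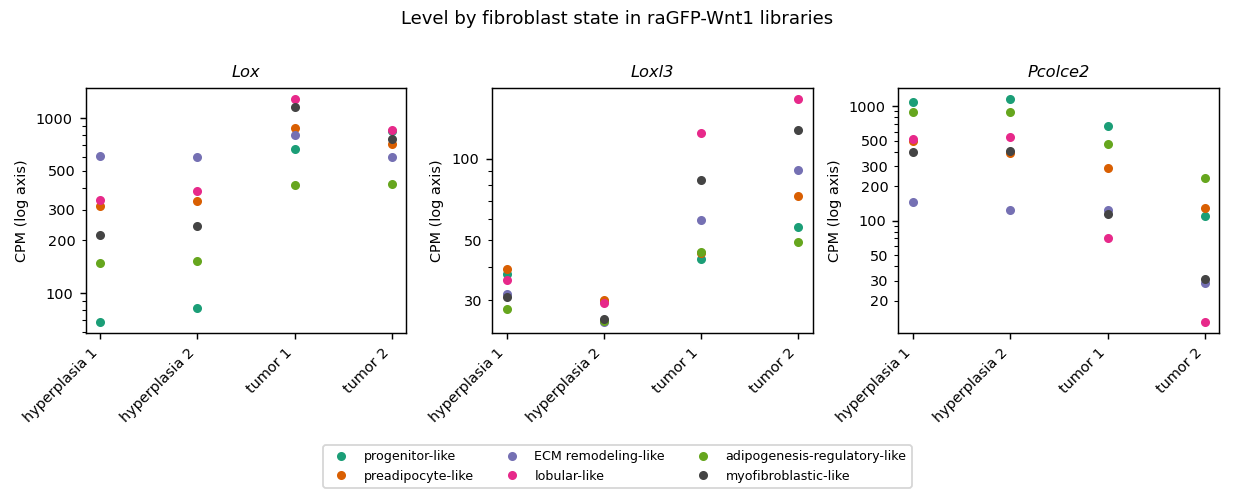
Level of Lox, Loxl3 and Pcolce2 (y axis, CPM, log axis) in the 2 hyperplasia and 2 tumor libraries (x axis), with 1 point per state and library where at least 50 cells were present. Lox in the progenitor-like state goes from 68.5 and 82.3 in hyperplasia to 671 and 842 in tumors, and Pcolce2 in tumor 2 is the lowest of the 4 libraries in each state.

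With the same mix of clusters in every raGFP-Wnt1 library, Lox was 358 and 351 CPM in hyperplasia and 881 and 721 in tumors, Loxl3 was 32.6 and 27.0 against 73.3 and 102, and Pcolce2 was 545 and 546 against 271 and 64.2. The groups still did not overlap for these 3 genes, and the share of all genes without overlap was not counted.

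The fourth comparison set hyperplasia against normal glands, with puberty and adult joined as normal. These groups also differ in strain, sort and age, which cannot be told apart from the transgene, and the hyperplasia libraries are the same as in the tumor comparison. Lox rose, and Loxl1 and Pcolce fell. In the same limma fit 7.70% of all genes were called higher and 6.29% lower. The median log2 fold change was -0.24 over the members and -0.01 over all genes.

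Lox had 157 and 124 CPM in the puberty and adult libraries and 366 and 333 in hyperplasia (1.28, SE 0.21, adjusted p = 0.0213 by limma). Loxl1 had 774 and 828 against 385 and 417 (-1.03, SE 0.17, adjusted p = 0.0220 by limma). Pcolce had 987 and 653 against 354 and 338 (-1.26, SE 0.25, adjusted p = 0.0312 by limma). Groups did not overlap for any of these, and the share of all genes without overlap was not counted here either. The placebo libraries, also from wildtype glands of 9 weeks but not in this fit, had Pcolce at 408 and 411, nearer to hyperplasia than to the adult library, while Lox stood at 183 and 174 and Loxl1 at 703 and 568. Plod2 had 192 and 149 against 97.3 and 118 (-0.70, SE 0.24, adjusted p = 0.0934 by limma), beside 94.0 and 126 with placebo, and it was called when either tumor library was left out, at -0.70 with adjusted p of 0.0297 and 0.0293 by limma. Without puberty, adult, hyperplasia 1 or hyperplasia 2, each in turn, 0 members were called. Log2 fold changes over these 4 fits were 1.10 to 1.50 for Lox, -1.08 to -0.99 for Loxl1 and -1.57 to -0.92 for Pcolce, and 8, 183, 2 and 1 genes were called in all. Endothelial markers summed to 23.1 and 27.1 CPM in normal glands and 5.75 and 12.8 in hyperplasia, and muscle markers to 10.9 and 7.48 against 3.66 and 3.89. Their part in the result was not tested.

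Of the 21 hydroxylation, folding and propeptide genes, 1 rose and 8 fell in hyperplasia, with a median log2 fold change of -0.74. P3h3 rose (1.01), from 61.3 and 51.1 CPM in puberty and adult to 120 and 112 in hyperplasia. The placebo libraries had P3h3 at 103 and 90.8 CPM, nearer to hyperplasia than to puberty or adult, so the size of this rise depends on the normal libraries used. P4ha2 (-1.37), the procollagen N-proteinase Adamts2 (-1.30), the collagen chaperone Serpinh1 (-1.25), Colgalt2 (-1.10) and Colgalt1 (-1.09) were the largest of those that fell. With placebo Colgalt2 was 4.39 and 5.55 CPM, near hyperplasia at 4.35 and 4.45. Levels of P4ha2, Adamts2, Serpinh1 and Colgalt1 with placebo lay between the normal and the hyperplasia libraries. Of the 13 substrates and partners, Efemp2, a fibulin that takes part in elastic fiber assembly, fell (-0.70), and the median was -0.70. Efemp2 had 190 and 161 CPM in puberty and adult and 112 and 110 in hyperplasia, beside 121 and 111 with placebo. Neither list had a call without puberty, adult, hyperplasia 1 or hyperplasia 2, each left out in turn.

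For each member the genes of most like pattern were taken over the 13 libraries, by Pearson's r of log2(CPM + 1) over 7857 genes. The libraries share groups and mice, so these values are descriptions. Lox was closest to Rasa3 (0.963), Mgp (0.941) and Gask1b (0.933), and Mgp is 1 of the 5 markers used to name the ECM remodeling-like state. Pcolce2 was closest to Stxbp6 (0.987), Arhgap20 (0.985) and Camk1d (0.982). Loxl3 was closest to Mtch1 (0.969), Tgfb3 (0.965) and Myl12a (0.964), and Plod3 to Mogs (0.971), Tpm4 (0.952) and Ikbip (0.949). Loxl1 came with Mfsd5 (0.956), Coa5 (0.919) and Dcaf12 (0.913), and Loxl2 with Nsrp1 (0.872), Tm9sf4 (0.852) and Col15a1 (0.852). Plod2 came with Frk (0.915) and Pon3 (0.856), Plod1 with Ramp1 (0.868), Cdkn2c (0.817) and Rilpl2 (0.789), and Pcolce with Mpnd (0.928), Hacd1 (0.921) and Cks1b (0.917). The sparse Loxl4 came with Ccdc97 (0.827), Sfxn3 (0.806) and Tbc1d10b (0.799).

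All 10 members are protein-coding genes in GENCODE M21 on GRCm38. Lox lies on chromosome 18 from 52516067 to 52529867 on the minus strand, with 7 exons. Loxl1 lies on chromosome 9 (58287738 to 58313186, minus, 7 exons), Loxl2 on chromosome 14 (69609068 to 69695834, plus, 14 exons) and Loxl3 on chromosome 6 (83034173 to 83052562, plus, 14 exons). Loxl4 lies on chromosome 19 (42593982 to 42612813, minus, 15 exons). Plod1 lies on chromosome 4 (147909753 to 147936767, minus, 19 exons), Plod2 on chromosome 9 (92542223 to 92608428, plus, 20 exons) and Plod3 on chromosome 5 (136987019 to 136996648, plus, 19 exons). Pcolce lies on chromosome 5 (137605103 to 137613784, minus, 9 exons) and Pcolce2 on chromosome 9 (95637601 to 95698096, plus, 9 exons). Pcolce overlaps Fbxo24 on the same strand, so its counts are uncertain to that extent.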

How the data were processed

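The deposited files are matrices of raw counts (UMIs by gene and by barcode), made by the authors with Cell Ranger 6.1.2 on mm10 per the labels, in filtered form and without normalization. The members and the gene lists were chosen with earlier results of these data known.

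Barcodes with 500 to 7500 genes, at most 10% mitochondrial UMIs, at least 50 UMIs of Dcn, Lum and Col1a2 per 10000 and none of Epcam, Pecam1, Rgs5, Sox10, Ptprc or Myog were taken as fibroblasts. No doublet caller was run. UMIs were summed per library and tested with edgeR 4.0.16 (hormone) or limma-voom 3.58.1 (Wnt1), with TMM scaling, filterByExpr and an adjusted p under 0.05, in R 4.3.3. DESeq2 1.42.0 was an alternative. The hormone fits by edgeR and DESeq2 and the tumor against hyperplasia fit by limma were tried on simulated counts, and the other steps were not. Per the study's methods, each hormone library pooled 2 females, so p-values of the hormone fits measure the spread between such pools. In the limma fit with normal glands, the spread includes the difference between the puberty and adult stages.

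Integration was run with Seurat 5.3.0 within each of the 3 experiments (reciprocal PCA, 1000 features without members or listed genes, 30 dimensions, resolution 0.3). A cluster took a state's name with at least 3 markers at 2 fold, or 4 where none was among its 10 leading genes, and clusters with Myh11 among their 10 leading genes stayed unnamed. These rules were chosen with the cluster tables in view, and a difference from the study's states may come from the rebuilt names. Levels at the same mix of clusters used clusters with at least 20 cells in each library.

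Per the labels, each tumor library is paired by mouse with the hyperplasia library of its number, and their deviations from the group means correlated at 0.0954 over 16001 genes. Replicate libraries differed by more than sampling noise (chi-square per degree of freedom 72.4 to 343).

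All 10 members were named in every comparison. Of each list up to 6 called genes with the largest absolute log2 fold change were named, and for each member the 3 genes of highest correlation among those with a mean of at least 10 CPM. For Plod2, 1 of these 3 is not reported here. Alternatives were other tests, scalings, filters, barcode rules and leaving out each library. Intervals cover counting error only.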

Additional observations from a re-analysis of the deposited data

How the results depend on the processing

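Leaving out 1 library assumes that the lone library left in its group varies like the others. Members called then ranged from 0 to 3 for MPA+E against placebo, 0 to 7 for tumor against hyperplasia and 0 to 4 for hyperplasia against normal, and called pairs of member and state from 3 to 10. Without placebo 1 or MPA+E 1, Loxl4 turned to 0.05 and 0.11 in log2 fold change and Pcolce to -0.01 and -0.22, over a full range of -0.21 to 0.11 for Loxl4 and -0.22 to 0.30 for Pcolce. In hyperplasia against normal Loxl4 turned to -0.0007039 with no filter and -0.058 at 100 fibroblast UMIs per 10000, and ranged from -0.24 to 0.35 when 1 library was left out. Plod1 in the progenitor-like state ranged from -0.049 to 0.58. None of these turned values was called. In all, 6 members had a UMI in over 50% of fibroblasts, and 2 after thinning to 2000 UMIs.

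In fits of the 4 raGFP-Wnt1 libraries alone, the mouse as a replicate block gave 6 members and 4898 genes called, against 5 members and 3187 genes without the block. The block added Pcolce and changed no other member's call. With the replicate number as a block, the hormone fit called 2451 genes in place of 678, and 4 members, with Plod1 added at an adjusted p of 0.00568 by edgeR. The labels do not pair these libraries, and their deviations from group means correlated at 0.396 over 15642 genes. DESeq2 called 1358 genes and 4 members, with Plod1 added (adjusted p = 0.00154). The stage count of 0 members past 2 fold held under the other barcode rules, TMM scaling and a minimum of 10 CPM. For tumor against hyperplasia 4777 genes were called, and 2975 and 2946 without puberty and without adult. For hyperplasia against normal 2280 were called, and 4810 and 4799 without a tumor library.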
